A study of Ambystoma californiense with 99 samples.

Results

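HEMK1, COCH and BANK1 are 3 gene names selected on their level in F1 hybrid tiger salamanders, listed as lower there than in the parents. The names matched 4 of the 23251 features in each of the brain and leg muscle count tables, because COCH occurs on a pair of gene models. All 4 features passed the filter on low counts, which left 15496 features in brain and 12554 in muscle. The samples were F1 hybrids, BTS (read here as the barred tiger salamander, Ambystoma mavortium, introduced to California), CTS (Ambystoma californiense, the California tiger salamander, native and endangered) and a few backcrosses. F1, BTS and CTS each had animals heated acutely until the righting response had been lost for 30 seconds, and controls. In brain there were 10 heated and 13 control F1, 6 and 5 BTS, and 5 and 5 CTS libraries. In muscle there were 12 heated and 13 control F1 libraries, with the same numbers of BTS and CTS. Tagged backcrosses added, in each tissue, 2 heated and 1 control BTS-backcross libraries (BTSbc) and 1 heated CTS-backcross library (CTSbc), which had no control. Males and females were both present in every F1, BTS and CTS group, and the labels give no age, population or batch. Sex was uneven over treatment in the parents. In each tissue BTS had 5 females and 1 male heated, against 2 and 3 as controls. CTS had 2 females and 3 males heated, against 4 and 1 as controls. Within a tissue each library came from a separate animal, and an animal was sampled under 1 treatment, except animal 64, whose labels make its brain a control and its muscle a heated sample. Animal 76 is BTS by its title and CTS by its tag, and the backcross animals 12, 26, 30 and 84 have other genotypes in their titles; the tags were followed.

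HEMK1 is a methyltransferase of the HemK family; in human cells it modifies the release factors that end protein synthesis on mitochondrial ribosomes. COCH encodes cochlin, a secreted matrix protein with von Willebrand factor A domains that in mammals is abundant in the inner ear and is also found in the spleen and lymph nodes. BANK1 is a scaffold protein of B lymphocytes that in human cells links B cell receptor signalling through the kinase LYN to calcium release. For a hybrid, a gene whose F1 level lies midway between the parents is additive, and one whose F1 level matches 1 parent is dominant for that parent's level.

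Levels below are CPM, the reads of a feature scaled to a common library total, with no length correction, so they compare libraries and not genes. They also lack the TMM scaling between libraries that the fits use. Over all libraries of muscle, its factors included 0.496 for heated CTS animal 13 and 1.36 for heated CTS animal 14. Small differences of level between muscle groups can thus change with the scaling. Library totals ran from 3213005 to 13506066 reads in brain and from 1232774 to 20068304 in muscle. The lowest muscle total was that of heated F1 animal 67, whose HEMK1 level of 2.43 CPM rests on 3 reads. Its 0 reads of both COCH features and BANK1 have an upper 95% limit of 2.99 CPM. The brain library of heated F1 animal 16 had 5418 reads and the muscle library of heated F1 animal 11 had 66186. The brain library of animal 16 also had 116279 CPM of skeletal muscle markers, where the other F1 brains had 20.3 to 242.7 CPM. Both libraries stayed in the model fits, and levels are given without them, which left 9 heated F1 brains and 11 heated F1 muscles. Because whole tissue was sequenced, fewer cells of a type and less RNA per cell cannot be told apart. Whether F1 was lower depended on the parent: F1 was far below a subset of BTS animals for HEMK1 and for 1 COCH feature, HEMK1 in F1 lay close to CTS, and BANK1 in F1 brain lay between the parents. Among controls, the fitted F1 level was also below that of CTS by more than its standard error for 1 COCH feature (the first below) in brain and the other (the second) in muscle, and by less than it for the first in muscle.

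HEMK1 (AMEXTC_0340000061938) was low in every library tagged F1 or CTS and split BTS into high and low animals. In brain, the 9 heated F1 libraries ran from 7.64 to 16.6 CPM with a median of 9.62, and the 13 control F1 libraries from 6.37 to 14.4 CPM with a median of 10.3. The 6 heated BTS brains had 8.03, 8.51, 9.34, 12.7, 13.0 and 188 CPM, against 106, 167, 179.7, 189 and 195 CPM in the 5 BTS controls. Heated CTS brains had 5.86, 8.75, 10.9, 11.0 and 12.1 CPM, against 8.81, 10.1, 11.6, 12.9 and 13.8 CPM in CTS controls. F1 overlapped CTS in brain, and 5 of the 6 heated BTS brains lay within the F1 range, while every BTS control brain and heated BTS animal 75 stood above the highest F1 library. No brain library lay between 16.6 and 106 CPM. The 8 libraries above that gap were 0 of 22 F1, 6 of 11 BTS, 0 of 10 CTS, 2 of 3 BTSbc and 0 of 1 CTSbc.

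In muscle, HEMK1 ran from 2.43 to 8.00 CPM with a median of 4.67 in heated F1, and from 1.76 to 7.78 CPM with a median of 5.32 in control F1. Heated BTS muscles had 1.12, 1.82, 1.82, 1.83, 2.57 and 87.2 CPM, against 5.18, 55.9, 69.6, 72.7 and 85.1 CPM in BTS controls. CTS muscles ran from 2.59 to 5.89 CPM when heated and from 2.08 to 10.1 CPM as controls. The same form appeared as in brain: animal 75 was the high heated BTS muscle, and no library lay between 10.1 and 55.9 CPM. The 7 muscles above this gap were 0 of 24 F1, 5 of 11 BTS, 0 of 10 CTS and 2 of 3 BTSbc. The backcross animals with high HEMK1 were heated BTSbc animals 12 and 30, with 177 and 155 CPM in brain and 79.7 and 66.2 CPM in muscle. BTSbc control animal 26 had 14.9 CPM in brain and 4.88 CPM in muscle, and heated CTSbc animal 84 had 11.8 and 4.56 CPM, within the F1 ranges of brain and muscle. The titles place these animals otherwise: by title animal 30 is an F1, which would be the only F1 with high HEMK1, animal 12 a high heated BTS and animal 26 a low BTS control.

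**Figure D1:**
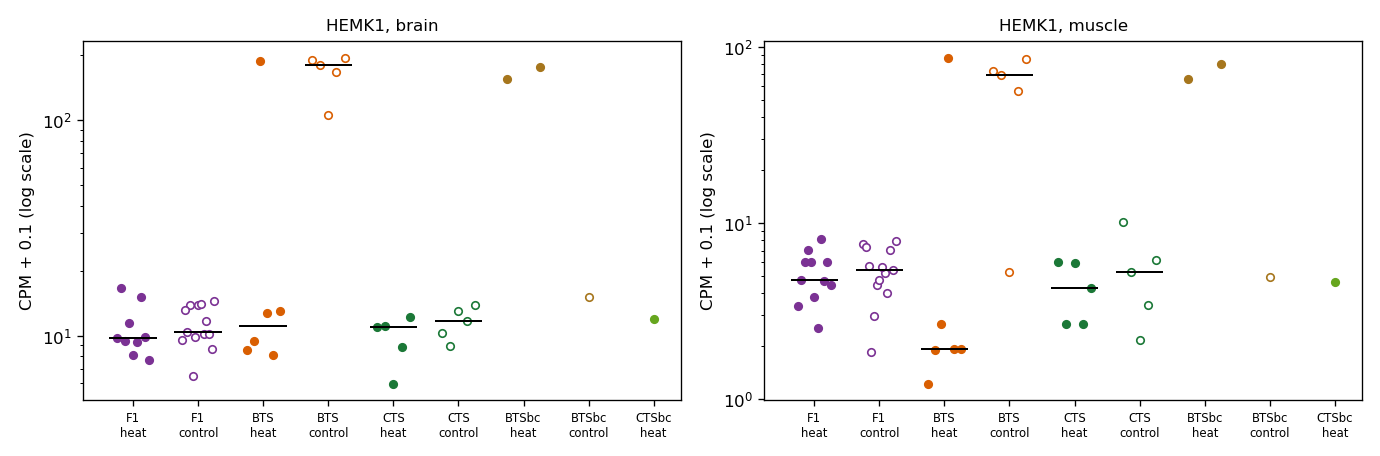
HEMK1 level in each brain library (left) and muscle library (right), as CPM + 0.1 on a log axis, by genotype and treatment; filled points are heated animals, open points controls, and black bars group medians. In brain all F1 and CTS libraries lie at or below 16.6 CPM, and 1 heated BTS, 5 control BTS and 2 heated BTSbc animals lie at or above 106 CPM.

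The high or low state of HEMK1 was shared by the tissues of an animal in 9 of 10 BTS animals with both libraries. The exception was BTS control animal 68, with 106 CPM in brain and 5.18 CPM in muscle. Its muscle also had the highest sum of skin markers among BTS muscles, 220.5 CPM in a BTS range that starts at 29.0 CPM and has a median of 55.2 CPM; the part of this in its HEMK1 level was not tested. All 5 control and 1 of 6 heated BTS brains were high, so pooled treatments add to a spread within BTS. With treatments pooled, the spread of HEMK1 within BTS was wide for the tissue. Its standard deviation on the log2 scale was 2.13 in BTS brain, rank 44 of 15091 features, and 2.72 in BTS muscle, rank 24 of 10630, where the median features had 0.37 and 0.47. Within F1 it was 0.34 in brain and 0.51 in muscle, close to the medians of 0.43 and 0.52. High HEMK1 was found in 3 male and 3 female BTS brains: those of the 3 male and 2 female controls and of heated female animal 75. The heated BTS brains were of 5 females and 1 male, so sex and treatment overlap here.

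The fitted F1 level of HEMK1 was compared with the mid-parent, the mean of the log2 levels of BTS and CTS. These contrasts use the libraries on which the set was chosen, so they are given as sizes with standard errors and no test. In brain the F1 minus mid-parent difference was -0.83 ± 0.38 among heated animals and -2.02 ± 0.34 among controls (log2, SE). In muscle the differences were -0.79 ± 0.47 among heated animals and -1.81 ± 0.46 among controls. Dominance, d/a, is the F1 deviation from the mid-parent divided by the distance from the mid-parent to a parent, so that at the CTS level the deviation is as large as that distance. For HEMK1 it was -0.86 in heated and -1.01 in control brain, and -1.33 in heated and -0.94 in control muscle. Only 6 of 11 BTS brains and 5 of 11 BTS muscles were high, and the labels do not name the parents of the F1 animals. A low level in the BTS parent would give the same ratio, so it is not read as dominance of the CTS level. This limit also holds for the first COCH feature and for BANK1 in muscle, where BTS was split too. Against CTS itself, F1 differed by 0.13 in heated and -0.01 in control brain and by -0.20 in heated and 0.12 in control muscle, all smaller than their standard errors of 0.44 to 0.60. In heated muscle the fitted sign went against the mean levels, which were 5.08 ± 1.65 CPM in F1 and 4.22 ± 1.64 CPM in CTS (SD, n = 11 and 5), so no direction is given there. Those levels lack the TMM scaling used in the fit. Against BTS the F1 differences were -1.79 and -4.02 in heated and control brain, and -1.39 and -3.74 in heated and control muscle. On the linear scale the mean F1 level was 43.3% of the mid-parent in heated and 12.5% in control brain, and 50.05% in heated and 16.7% in control muscle.

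The heated comparison rested on animal 75. Without it the F1 minus mid-parent difference of HEMK1 among heated animals was 0.14 in brain and 0.71 in muscle, so its sign turned. The medians of heated animals differed between the tissues. Heated F1 brains had a median of 9.62 CPM, still below 11.0 CPM in heated BTS and 10.9 CPM in heated CTS brains. Heated F1 muscles had a median of 4.67 CPM, above 1.82 CPM in heated BTS and 4.196 CPM in heated CTS muscles. The F1 heat response minus the mean of the parental heat responses was 1.19 ± 0.51 in brain and 1.02 ± 0.65 in muscle (log2, SE), again a description.

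Within BTS, HEMK1 was lower in 5 of 6 heated than in all 5 control brains, and the log2 difference of heat minus control was -2.22 ± 0.50 in brain and -2.36 ± 0.66 in muscle (SE). In edgeR's quasi-likelihood test with Benjamini-Hochberg adjustment over all features these gave adjusted p-values of 0.182 and 0.410, and DESeq2 gave 0.0169 and 0.134. An exact two-sided permutation test on log2 CPM of 6 heated against 5 control BTS gave p = 0.0173 in each tissue, 2 of 24 such tests over the features, genotypes and tissues. These p-values are not independent, since 10 BTS animals had libraries of both tissues. With animal 75 left out, the edgeR differences were -4.10 and -5.29. Animal 75 was the only heated BTS animal with high HEMK1. Leaving it out removes the value that goes against a difference, so that fit is given as sizes alone. Over the other leave-one-out fits and alternatives the edgeR adjusted p stayed over 0.05. The BTS controls are also among the libraries on which the set was chosen, so none of these p-values is independent of that choice. Each BTS animal was sampled under 1 treatment and the groups are small, so a response to heat and a difference between animals cannot be told apart. Among F1, where no animal was high, the heat difference was 0.01 ± 0.36 in brain and -0.00 ± 0.43 in muscle, and among CTS -0.13 ± 0.54 and 0.32 ± 0.72. The 2 high BTSbc animals were both heated.

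The feature AMEXTC_0340000041492, here the first COCH feature, was near 0 in F1 and CTS and high in a few BTS animals. In brain it ran from 0 to 2.44 CPM with a median of 0.278 in heated F1, and from 0 to 2.04 CPM with a median of 0.478 in control F1; 3 of 22 F1 brains had 0 reads. Heated BTS brains had 0, 0.276, 0.589, 0.666, 19.9 and 24.5 CPM, against 0.230, 0.292, 0.759, 25.1 and 28.3 CPM in BTS controls. CTS brains ran from 0 to 1.2 CPM when heated and from 0.807 to 2.57 CPM, with a median of 1.99, as controls. The control F1 median was below the lowest CTS control brain. Only BTS brains, 4 of 11, lay above the widest gap between libraries, from 3.30 to 19.9 CPM, and the other 7 BTS brains fell within the F1 range. At the depth of these brains 1 read was worth well under 1 CPM, and the F1 values rest on 0 to 18 reads a library.

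In muscle the first COCH feature was at 0 to 0.998 CPM in heated F1 and 0 to 0.470 CPM in control F1, with 6 of 24 F1 muscles at 0 reads. Heated BTS muscles had 0, 0, 0.0865, 0.240, 34.8 and 41.4 CPM, against 0, 0, 0.140, 0.495 and 38.2 CPM in BTS controls. CTS muscles ran from 0 to 0.703 CPM. The 3 high muscles came from BTS animals 71, 75 and 78, which were also high in brain; the remaining high brain was of control animal 69, which had no muscle library. All 10 BTS animals with both tissues were on the same side of the gap in each, 3 high and 7 low. The 4 high animals were 2 heated and 2 control, and 1 male and 3 females. Backcross libraries were low, at 0.554 to 3.30 CPM in brain and 0 to 0.279 CPM in muscle, and BTSbc animal 26 had the highest brain value outside the high BTS animals. HEMK1 and the first COCH feature split BTS differently. Animal 78 was high for COCH and low for HEMK1 in both tissues, animals 60 and 74 were low for COCH and high for HEMK1 in both, and animals 71 and 75 were high for both.

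**Figure D2:**
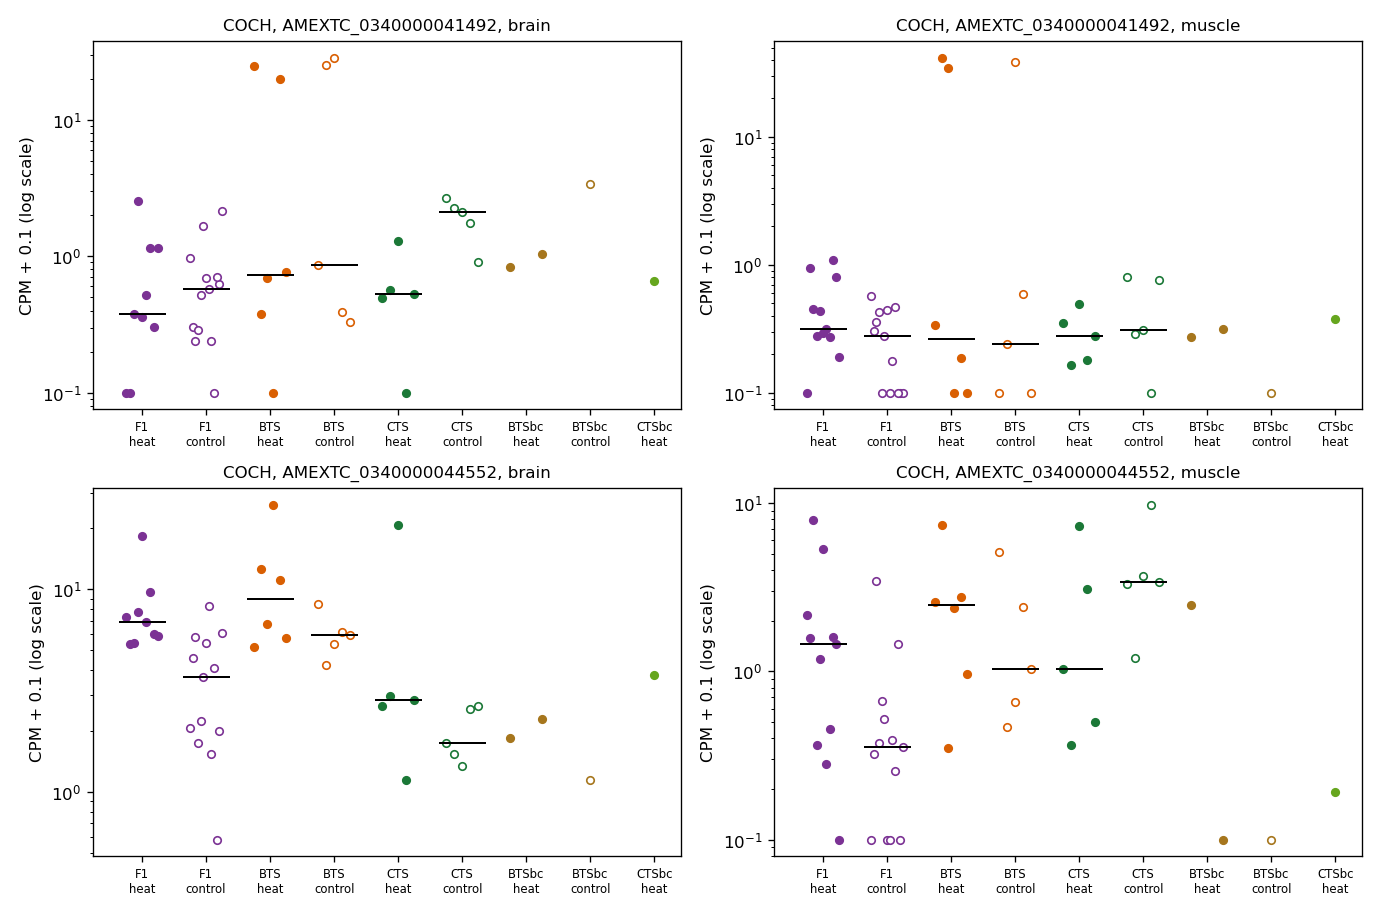
Levels of the first COCH feature (top) and the second COCH feature (bottom) in each brain and muscle library, as CPM + 0.1 on a log axis, with the same groups, symbols and median bars as for HEMK1. For the first feature 4 BTS brains lie at 19.9 CPM or more and 3 BTS muscles at 34.8 CPM or more; the second feature shows no such gap.

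Against the mid-parent, the first COCH feature in F1 differed by -1.71 ± 0.95 in heated and -3.15 ± 0.76 in control brain, and by -2.74 ± 1.03 in heated and -3.28 ± 1.04 in control muscle (log2, SE, no test). The ratio d/a was -1.04 in heated and -2.14 in control brain, and -1.77 in heated and -1.39 in control muscle. Against CTS the F1 differences were -0.07 ± 1.32 and -1.68 ± 0.91 in heated and control brain, and -1.19 ± 1.49 and -0.92 ± 1.39 in heated and control muscle. In heated muscle the mean levels ran the other way, with 0.372 ± 0.329 CPM in F1 and 0.194 ± 0.137 CPM in CTS (SD, n = 11 and 5), on 0 to 13 reads a library in F1 and 1 to 6 in CTS. The difference is below its standard error and comes from a model with a sex term, so neither it nor the d/a of heated muscle places F1 below CTS there. The F1 median was 125% of the mean of the parental medians in heated and 101% in control muscle, since most BTS muscles were also near 0. One library decided the muscle controls: without BTS control animal 71 the F1 minus mid-parent difference was -0.93. With treatments pooled, the spread of this feature within BTS ranked 15 of 15091 in brain (SD 2.66 on the log2 scale) and 5 of 10630 in muscle (SD 3.39).

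The feature AMEXTC_0340000044552, the second COCH feature, varied among libraries of every genotype with no wide gap. In brain it ran from 5.25 to 18.2 CPM with a median of 6.81 in heated F1, and from 0.481 to 8.16 CPM with a median of 3.59 in control F1. Heated BTS brains ran from 5.11 to 26.0 CPM with a median of 8.83, against 4.14, 5.26, 5.84, 6.08 and 8.32 CPM in BTS controls. Heated CTS brains had 1.04, 2.56, 2.74, 2.89 and 20.6 CPM, against 1.24, 1.44, 1.63, 2.45 and 2.56 CPM in CTS controls. F1 overlapped both parents, and the lowest heated F1 brain, at 5.25 CPM, stood above the median of the F1 controls. The F1 minus mid-parent difference was 0.10 ± 0.38 in heated and 0.16 ± 0.38 in control brain, with d/a of 0.17 and 0.21. The highest CTS brain, of heated animal 7, also had the highest sum of skeletal muscle markers of any CTS brain, 1475.5 CPM where the CTS median was 30.4 CPM, and the highest inner ear marker sum, 27.0 CPM where the CTS median was 8.93 CPM. The part of these in the COCH value was not tested; without animal 7 the heated F1 difference in brain was 0.71.

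In muscle the second COCH feature ran from 0 to 7.79 CPM with a median of 1.35 in heated F1, and from 0 to 3.35 CPM with a median of 0.257 in control F1. The only heated F1 muscle at 0 was that of animal 67, where the upper 95% limit was 2.99 CPM. BTS muscles had medians of 2.38 CPM when heated and 0.931 CPM as controls, and CTS muscles 0.929 CPM when heated and 3.28 CPM as controls. The order of heated F1 and CTS depended on the scaling: with TMM scaling their medians were 1.27 and 1.48 CPM. The F1 minus mid-parent difference was -0.17 ± 0.63 in heated and -2.24 ± 0.67 in control muscle, where F1 minus CTS was -2.85 ± 0.74, F1 minus BTS was -1.63 ± 0.82 and d/a was -3.65 (log2 with SE, no test). The fitted level of control F1 muscle was thus below both parents. Its range overlapped those of BTS and CTS controls, but its median was below the lowest CTS control, at 1.11 CPM, and the lowest BTS control, at 0.365 CPM, and 4 of its 13 libraries had 0 reads. How the counting treated reads that fit both COCH gene models is not stated, so the pair may not measure separate genes.

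BANK1 (AMEXTC_0340000051315) in brain lay between the parents in F1. It ran from 0.543 to 3.39 CPM with a median of 1.57 in heated F1, and from 1.16 to 4.16 CPM with a median of 2.40 in control F1. BTS brains ran from 1.57 to 6.54 CPM with a median of 3.74 when heated and from 2.08 to 5.69 CPM with a median of 2.76 as controls. CTS brains ran from 0.770 to 1.71 CPM when heated and from 0.867 to 1.65 CPM as controls. The 4 backcross brains had 0.739 to 1.16 CPM, within the CTS range or just below it, BTSbc included. F1 overlapped both parents, and the parents overlapped only in that the highest heated CTS brain (1.71 CPM) and the highest control CTS brain (1.65 CPM) exceeded the lowest BTS brain (1.57 CPM). The F1 minus mid-parent difference was -0.17 ± 0.29 in heated and 0.29 ± 0.26 in control brain, with d/a of -0.19 and 0.34. F1 exceeded CTS by a fitted 0.70 ± 0.37 and 1.15 ± 0.35, and differed from BTS by -1.03 ± 0.31 and -0.56 ± 0.32, in heated and control brain. These values rest on 2 to 53 reads a library.

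In muscle BANK1 was high in 3 F1 and in some BTS animals. Most F1 muscles were near 0, with medians of 0.0899 CPM in heated and 0.150 CPM in control F1, and 5 of 24 had 0 reads. The F1 exceptions were heated animal 16 with 7.86 CPM and control animals 5 and 19 with 9.11 and 8.50 CPM; heated animal 2 followed with 1.65 CPM. Heated BTS muscles ran from 0 to 35.9 CPM with a median of 13.6, and BTS controls had 0.0729, 0.248, 0.280, 15.7 and 38.8 CPM. CTS muscles did not exceed 0.257 CPM and backcross muscles did not exceed 0.287 CPM. No muscle lay between 1.65 and 7.86 CPM, and the 9 above that gap were 3 of 24 F1, 6 of 11 BTS (4 heated, 2 control), 0 of 10 CTS and 0 of 4 backcross libraries. All 3 high F1 muscles were below the lowest of the 6 high BTS muscles, at 12.7 CPM.

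**Figure D3:**
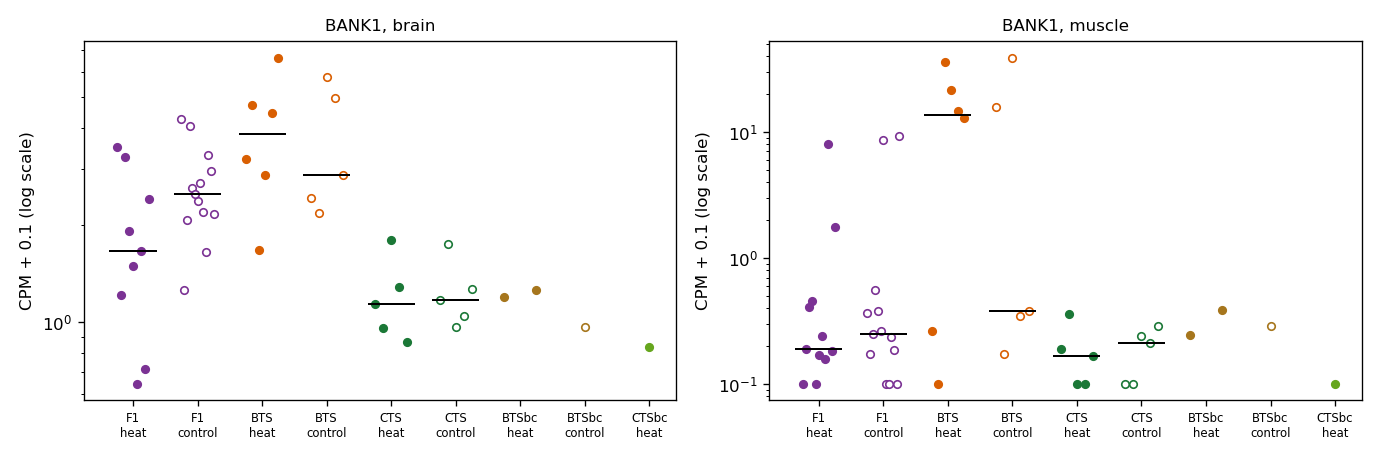
BANK1 level in each brain library (left) and muscle library (right), as CPM + 0.1 on a log axis, with groups, symbols and median bars as for HEMK1. In muscle 3 F1 and 6 BTS libraries lie at 7.86 CPM or more, and all CTS libraries lie at or below 0.257 CPM.

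The muscle difference of BANK1 from the mid-parent was poorly determined, at -0.51 in heated and -0.12 in control F1. Its computed standard errors, 1.58 and 2.85, exceed the mean of the errors against BTS and CTS given below. For an average of those 2 differences that cannot be, so they are not read as its precision. The d/a ratio was -0.15 in heated and -0.03 in control muscle. Against BTS the fitted F1 differences were -3.91 ± 1.10 in heated and -3.69 ± 1.19 in control muscle, and against CTS, where 4 of 10 muscles had 0 reads, 2.90 ± 1.91 and 3.46 ± 1.90 (log2, SE, no test). The mean F1 level was 13.6% of the mid-parent in heated and 26.6% in control muscle, while the F1 median was 1.31% and 76.6% of the mean of the parental medians. High libraries were 4 of 6 in heated BTS and 2 of 5 in control BTS. Markers of B cells, the cells BANK1 is known from, were low in all muscles. The summed level of 5 B cell marker features (Cd79b, EBF1, JCHAIN, POU2AF1 and pax5) was 0.461 to 3.66 CPM in F1, 0.365 to 3.06 CPM in BTS and 0.498 to 5.40 CPM in CTS muscles. Summed leukocyte markers, over 8 features, were 34.2 to 316.4 CPM in F1, 37.1 to 148 CPM in BTS and 8.07 to 78.0 CPM in CTS muscles. The part of B cells or other leukocytes in the BANK1 levels was not tested. Brain and muscle did not split together: of 5 BTS animals with high BANK1 muscle and a brain library, 1 was above the widest brain gap, a narrow one from 4.86 to 5.69 CPM.

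**Figure D4:**
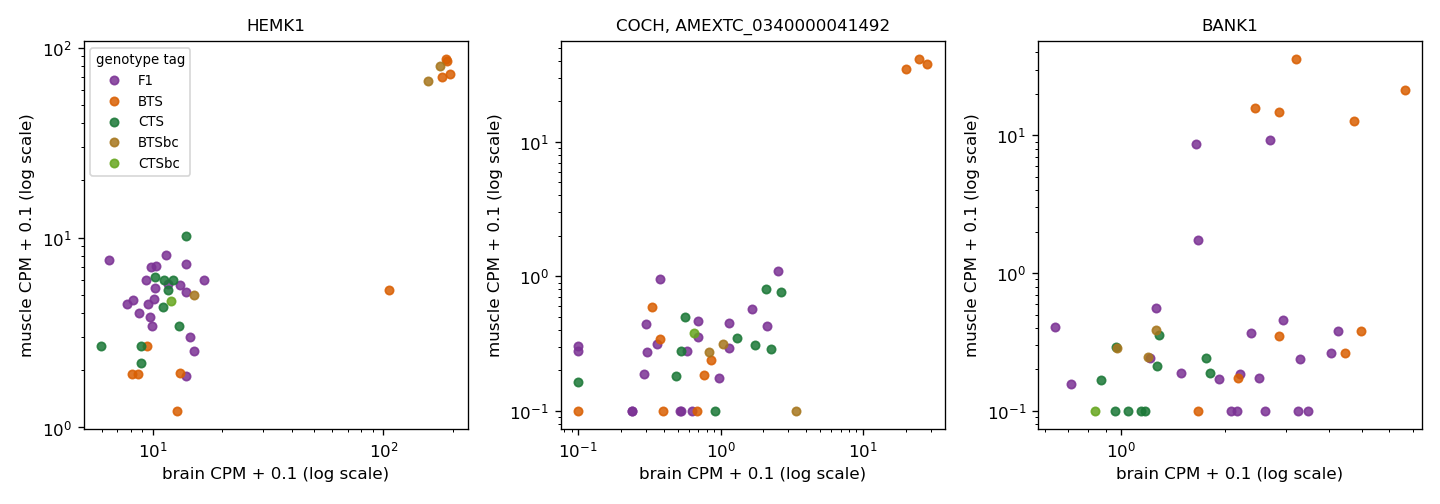
Brain level (horizontal) against muscle level (vertical) of HEMK1, the first COCH feature and BANK1 in animals with both libraries, as CPM + 0.1 on log axes, coloured by genotype tag. HEMK1 and COCH place the same BTS animals high in both tissues, with 1 HEMK1 exception, while high BANK1 muscle occurs over a range of brain levels.

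Over 20 F1 animals with both tissues under the same tags, brain and muscle levels of the members were compared by Pearson and Spearman correlation of log2 CPM. With the 12 control and the 8 heated animals also taken alone, this made 12 relations, of which 10 are given, and the p-values are not adjusted. For HEMK1, r was -0.21 (permutation p = 0.364) and rho -0.06 (permutation p = 0.796), and r was -0.26 without the 2 animals farthest from the median brain level. Among controls its r was -0.45 (permutation p = 0.147), and among heated animals 0.16 (exact permutation p = 0.705). For the first COCH feature, r was 0.46 (permutation p = 0.0423) and rho 0.44 (permutation p = 0.0534), and r was 0.24 without the 2 farthest animals (permutation p = 0.327), so over all F1 the relation did not hold without them. Among controls r was 0.38 (permutation p = 0.227), and 0.43 without the 2 farthest. Among heated animals r was 0.56 (exact permutation p = 0.144), and -0.05 without the 2 farthest. For the second COCH feature, r was 0.31 (permutation p = 0.181) and rho 0.40 (permutation p = 0.0798), and r was 0.56 without the 2 farthest (permutation p = 0.0170). Heated F1 stood above control F1 for this feature, so the pooled value includes that difference. Among controls r was 0.22 (permutation p = 0.487) and rho 0.22. Among heated animals r was -0.36 (exact permutation p = 0.409), and 0.81 without the 2 farthest (exact permutation p = 0.0417), so the sign turned with those animals. For BANK1, control animals 5 and 19 formed a separate high cluster in muscle, so no correlation over all F1 or over controls is given. Among the 8 heated animals, none of them in that cluster, r was -0.16 (exact permutation p = 0.707) and rho -0.54 (exact permutation p = 0.176).

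BTS and CTS differed for most members. In the mean over heated and control animals, BTS was higher than CTS in brain by 2.96 ± 0.38 for HEMK1 (adjusted p = 3.09e-08), 3.11 ± 0.77 for the first COCH feature (adjusted p = 0.00134), 1.33 ± 0.39 for the second (adjusted p = 0.00648) and 1.72 ± 0.27 for BANK1 (adjusted p = 2.88e-06), on the log2 scale with SE, by edgeR's quasi-likelihood test with Benjamini-Hochberg adjustment. So 4 of 4 were called in brain, where 35.2% of all features tested were called. In muscle 3 of 4 were called, beside 46.6% of all features: HEMK1 by 2.53 ± 0.50 (adjusted p = 5.05e-05), the first COCH feature by 3.91 ± 1.02 (adjusted p = 0.00163) and BANK1 by 6.98 ± 1.35 (adjusted p = 3.85e-05), while the second COCH feature had -0.51 ± 0.61 (adjusted p = 0.514). The set was chosen on F1 set against these parental libraries, so the parental calls are no independent evidence about it. DESeq2 called the same numbers, 4 and 3, for which no DESeq2 share of all features is given. Without animal 75 HEMK1 differed by 2.01 in brain and 1.05 in muscle. Without animal 69 the first COCH feature differed by 2.32 in brain, without animal 71 by 2.25 in muscle (adjusted p = 0.0801), and by 5.02 in muscle with no sex term. Without CTS animal 7 the second COCH feature differed by 1.98 in brain, and without BTS animal 80 BANK1 differed by 6.16 in muscle.

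**Figure D5:**
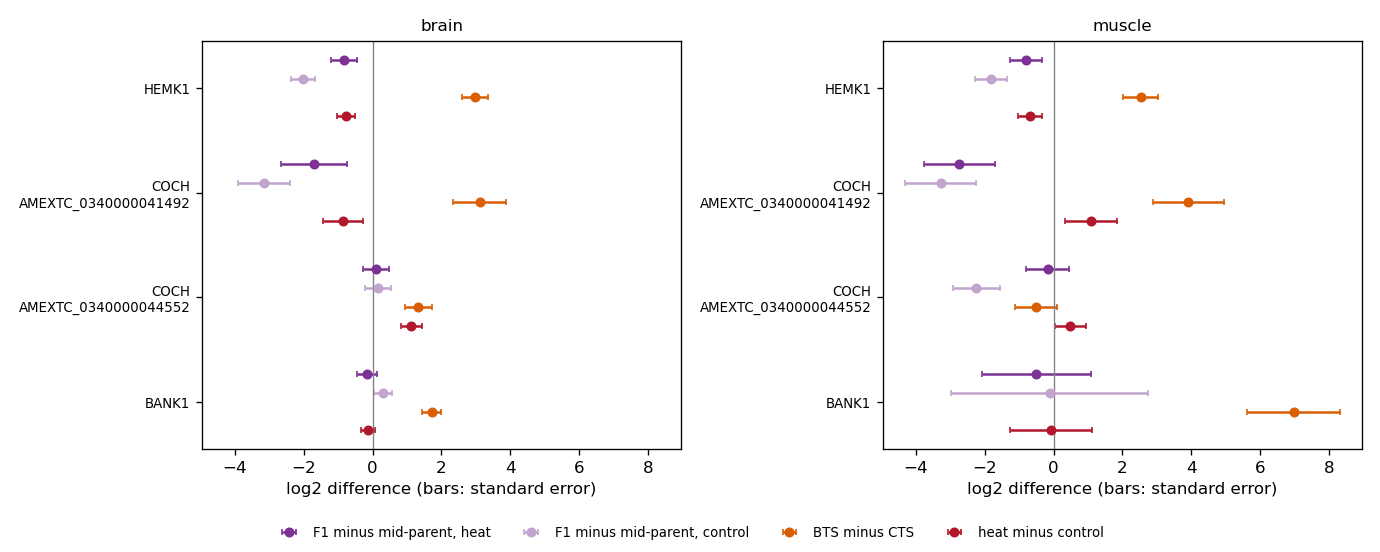
Fitted log2 differences of the 4 features in brain (left) and muscle (right); points are estimates and bars standard errors, for F1 minus mid-parent among heated animals, the same among controls, BTS minus CTS, and heat minus control averaged over genotypes. HEMK1 and the first COCH feature have F1 differences below 0 and parental differences above 0 in both tissues. BANK1 has wide bars in muscle, of which those of F1 minus mid-parent are not reliable standard errors.

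Averaged over the 3 genotypes, heat called 0 of the 4 features in brain and 0 of 4 in muscle, beside 0.0968% and 0.757% of all features. These calls are by edgeR's quasi-likelihood test with Benjamini-Hochberg adjustment. DESeq2 also called 0 and 0. In edgeR 2 in brain and 0 in muscle had an unadjusted p under 0.05, beside 994 of 15496 and 1418 of 12554 features. The second COCH feature differed by 1.13 ± 0.30 in brain (adjusted p = 0.177) and 0.49 ± 0.46 in muscle (adjusted p = 0.741), heat minus control. HEMK1 differed by -0.78 ± 0.26 in brain (adjusted p = 0.462) and -0.68 ± 0.35 in muscle (adjusted p = 0.459). Without BTS animal 75 these HEMK1 means were -1.43 and -1.71, given as sizes alone. That fit leaves out the only heated BTS animal with high HEMK1, at 188 CPM in brain and 87.2 CPM in muscle. With it kept, the brain and muscle differences of HEMK1 were -2.22 and -2.36 within BTS. They were 0.01 and -0.00 within F1, and -0.13 and 0.32 within CTS, so the means come from BTS. Within single genotypes edgeR called 0 of the 4 features in each tissue. DESeq2, run for F1 and BTS, called 1, the HEMK1 difference in BTS brain given above, and 0 in the others. The share of all features called by DESeq2 is not given. By edgeR the backgrounds of called features were 0.0516% in F1, 0% in BTS and 0% in CTS brain. In muscle they were 0.119% in F1, 0.0159% in BTS and 0.39% in CTS. These are no background for the DESeq2 call. At an unadjusted p under 0.05 there was 1 feature in each of F1, BTS and CTS brain, and 1, 1 and 0 in F1, BTS and CTS muscle. Of all features, 873, 835 and 542 of 15496 were under it in F1, BTS and CTS brain. In F1, BTS and CTS muscle these were 1312, 729 and 1889 of 12554. The second COCH feature in F1 brain had a heat difference of 1.09 ± 0.37 in the edgeR fit (adjusted p = 0.751), and 1.27 in log2 CPM with a permutation p of 0.00066 for 9 heated against 13 control animals. Skeletal muscle markers in brain had a median heat difference of 2.17, averaged over genotypes, with 0 of 6 called and 4 at an unadjusted p under 0.05. Without the brains of CTS animal 7 and F1 animal 16, the heat difference of the second COCH feature in F1 brain was 1.12 (edgeR adjusted p = 0.355). In F1 muscle the feature had 1.87 ± 0.64 (adjusted p = 0.276), with a permutation p of 0.0328 for a log2 CPM difference of 1.40. The first COCH feature in CTS brain was lower by permutation of log2 CPM, at -1.50. The exact permutation p was 0.0159 for 5 heated against 5 control animals. The edgeR test, which has a sex term, gave an unadjusted p of 0.233. The CTS brain values of this COCH feature rest on 0 to 15 reads a library. All of these permutation p-values are unadjusted and come from the 24 tests, which were added after seeing the data. They compare libraries on which the set was chosen, as do the edgeR tests within genotypes, so none is independent of that choice. Fold changes of log2 CPM understate changes of features with few reads.

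Sex called 0 of the 4 features in each tissue by edgeR, beside 0.0645% of features in brain and 0.558% in muscle. In each tissue 1 feature had an unadjusted p under 0.05, beside 667 of 15496 features in brain and 1263 of 12554 in muscle. The largest male minus female difference was that of the first COCH feature in muscle, -3.51 ± 1.0 (edgeR adjusted p = 0.0969). For it DESeq2 gave -2.91 (adjusted p = 0.0424), so that DESeq2 called 0 in brain and 1 in muscle. The DESeq2 share of all features is not given. All 3 muscles high in that feature were of female BTS. Without 1 of them, BTS control animal 71, the edgeR difference was -1.60 (adjusted p = 0.585). Male BTS control animal 69, high in this feature in brain at 25.1 CPM, had no muscle library. The effect of its absence on the muscle difference was not tested.

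The tissue difference depended on the scaling. Of 16288 features 90.9% were called between brain and muscle, and the median feature stood 1.38 higher in brain on the log2 scale. Brain minus muscle was 0.22 for HEMK1, 0.18 and 0.50 for the first and second COCH features and -0.11 for BANK1, with 0 of 4 called by edgeR, also at an unadjusted p under 0.05; DESeq2 was not run on it. All 4 are below that median shift. With the animal as a replicate block over 42 animals, whose median feature stood at 1.40, they were 0.45 for HEMK1 (adjusted p = 0.000695), 0.06 and 0.76 for COCH (the second with adjusted p = 0.0107) and 1.26 for BANK1 (adjusted p = 0.0146). No direction between tissues is given, since HEMK1 and the second COCH feature also changed sign without the filter on low counts.

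The other genes of the 3 pathways were described from lists chosen with earlier results of these data known. Counts below are from edgeR alone. For HEMK1 the list held mitochondrial translation factors, release factors and RNA methyltransferases, and 19 of 26 names matched, giving 18 features tested per tissue. In the F1 minus mid-parent mean, 0 of 18 were called in brain, beside 2.86% of all features called. An unadjusted p under 0.05 was found for 3 of 18 in brain, beside 2152 of all 15496 features. In muscle 4 of 18 were called, all higher, beside 12.3%. The list's median difference was 0.04 in brain and 0.24 in muscle, where all features had medians of 0.02 and 0.01. Between BTS and CTS, 5 were higher and 5 lower in brain, beside 35.2% of all features called, and 10 were higher and 1 lower in muscle, beside 46.6%.

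Of these, MTRF1L, a mitochondrial release factor, was higher in BTS brain, at 6.11 ± 1.03 CPM in BTS and 4.07 ± 1.36 CPM in CTS (SD, n = 11 and 10; difference 0.61, edgeR adjusted p = 0.00339). It was higher in BTS muscle too (0.55, adjusted p = 0.00858). The mitochondrial elongation factor gfm1 was higher in BTS by 0.89 in brain and 1.14 in muscle (edgeR adjusted p = 6.4e-09 and 1.21e-07). MRPL58, a peptide release protein of the mitochondrial ribosome, averaged 29.2 ± 7.39 CPM in BTS and 5.81 ± 3.17 CPM in CTS muscle (difference 2.27, edgeR adjusted p = 5.2e-11). The rRNA methyltransferase MRM1 was lower in BTS, by a fitted difference of -0.68 in brain and -1.39 in muscle (edgeR adjusted p = 0.00223 and 5.35e-09). None of the 18 was called for heat in either tissue by edgeR, beside 0.0968% and 0.757% of all features called. Those at an unadjusted p under 0.05 were 2 in brain, beside 994 of 15496 features, and 4 in muscle, beside 1418 of 12554.

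For COCH, the list of related matrix, cartilage and inner ear genes matched 21 of 33 names, with 19 features tested in brain and 15 in muscle. Between BTS and CTS, 4 were higher and 4 lower in brain, beside 35.2% of all features called, and 3 higher and 6 lower in muscle, beside 46.6%. Connective tissue and cartilage markers, summed over 5 features, had medians of 240.3 CPM in BTS and 412.1 CPM in CTS muscle, and their part in these counts was not tested. VIT, a vitrin with the same kinds of domain as cochlin, averaged 40.0 ± 8.10 CPM in BTS and 22.0 ± 7.46 CPM in CTS brain (SD, n = 11 and 10; difference 0.91, edgeR adjusted p = 0.000976). VWA1, another protein with a von Willebrand factor A domain, was higher in BTS by 0.94 in brain and 0.62 in muscle (edgeR adjusted p = 0.00162 and 0.00389). The collagen COL11A1 was lower in BTS, with differences of -1.02 in brain and -3.38 in muscle (edgeR adjusted p = 2.4e-05 and 0.000414), and the protease ADAMTS4 was lower in BTS muscle, with a difference of -1.955 (edgeR adjusted p = 9.34e-06). In the F1 minus mid-parent mean 0 of 19 were called in brain, beside 2.86% of all features. In muscle 1 of 15 was called higher, beside 12.3%. Of the brain features 2 had an unadjusted p under 0.05, beside 2152 of all 15496. Heat called 0 of 19 in brain, beside 0.0968%, with 2 at an unadjusted p under 0.05, beside 994 of 15496 features. In muscle heat called 2 of 15, beside 0.757%. Both were higher: ADAMTS4, by 1.0 (edgeR adjusted p = 0.0403), and COL11A1, by 2.28 (edgeR adjusted p = 0.0339). In the same muscle contrast 3 of 5 skin markers tested were lower, with a median difference of -4.37 over the 5, while 0 of 2 connective tissue and cartilage markers were called, with 1 at an unadjusted p under 0.05 and a median of 0.49. Their part in the heat differences was not tested.

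For BANK1, the list of B cell receptor signalling genes matched 22 of 33 names, with 18 features tested in brain and 14 in muscle. Between BTS and CTS, 3 were higher and 1 lower in brain, beside 35.2% of all features called, and 2 higher and 4 lower in muscle, beside 46.6%. PIK3AP1, an adaptor of phosphoinositide 3-kinase, was higher in BTS brain by 2.11 (edgeR adjusted p = 4.22e-07). The receptor CD40 averaged 8.06 ± 2.53 CPM in BTS and 2.78 ± 1.10 CPM in CTS brain (SD, n = 11 and 10; difference 1.54, edgeR adjusted p = 1.72e-08), and was higher in BTS muscle by 1.73 (edgeR adjusted p = 0.000473). SYK, a kinase of the B cell receptor, was lower in BTS brain, with a difference of -1.78 (edgeR adjusted p = 3.42e-06), and LYN, the kinase BANK1 binds, was lower in BTS muscle, with a difference of -0.86 (edgeR adjusted p = 0.0216). In the F1 minus mid-parent mean edgeR called 0 of the list in each tissue, beside 2.86% and 12.3% of all features called. At an unadjusted p under 0.05 there was 1 in brain, beside 2152 of 15496 features, and 1 in muscle, beside 3314 of 12554. Heat also called 0 in each tissue, beside 0.0968% and 0.757%. Those at an unadjusted p under 0.05 were 1 in brain, beside 994 of 15496 features, and 3 in muscle, beside 1418 of 12554.

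The features most like each member over the F1, BTS and CTS libraries, 43 brains and 45 muscles, were named by the highest Pearson r of log2 CPM, as a description; none exceeded 0.9. In brain they were LOC108790469 (0.64), POLA2 (0.63) and KDELR1 (0.63) for HEMK1, and TNFAIP2 (0.68), RETSAT (0.67) and DSE (0.65) for the second COCH feature. For BANK1 they were Prpf31 (0.77), ACOX2 (0.74) and agxt (0.74). The first COCH feature had vitellogenin (0.56) at the head, and the other 2 features carried truncated names. In muscle they were POLR3D (0.54), NOB1 (0.51) and LOC109291933 (0.48) for HEMK1, enah (0.72), LOC104842938 (0.66) and ANKRD1 (0.65) for the first COCH feature, and FBLN5 (0.58), PRRG1 (0.58) and FAM171A2 (0.56) for the second. For BANK1 they were a feature with a truncated name (0.67), PLAA (0.66) and RFTN1 (0.64). These libraries share the genotype groups, so a feature that differs between BTS and CTS gains likeness from that difference. The feature closest to HEMK1 in brain, LOC108790469, had 26.5 to 65.3 CPM across BTS brains and 17.7 to 28.7 CPM across CTS brains. For the first COCH feature, likeness may rest on few BTS libraries, which was not tested. Vitellogenin had a median of 0 CPM and a maximum of 188 CPM in BTS brains. ANKRD1 had medians of 106 CPM in BTS and 219 CPM in CTS muscles, with a BTS maximum of 3394 CPM.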

How the data were processed

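RNA from whole brain and leg muscle was made into stranded poly(A) libraries and sequenced as single 100-base reads, per the labels' protocols. The authors deposited raw read counts per gene model, 1 table per tissue with 48 brain and 50 muscle libraries. Trimmomatic, FastQC, STAR and HTSeq are named, per the submitters' processing notes; tool versions, counting options and the genome build were not given in the sources used here. Of the 23251 features 974 have no gene name. Animal 17, an F1, is represented by muscle only; its brain was not analysed here. The members and all lists were chosen with earlier results of these data known, and how the members were chosen within F1 is not recorded, so every F1 against parent contrast was treated as used.

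Counts were fitted per tissue with edgeR 4.0.16 in R 4.3.3: TMM scaling, filterByExpr, group and sex in the model, all F1, BTS and CTS libraries, the quasi-likelihood test, and Benjamini-Hochberg adjusted p-values over all features with a threshold of 0.05. The standard error of a difference is its size over the square root of its F statistic. For BANK1 against the mid-parent in muscle this gave values larger than the errors of its 2 parts allow. Levels are CPM of the library total for libraries of at least 1000000 reads, and within-genotype permutation tests used log2 CPM with a prior count of 2, two-sided, with 100000 resamples where not exact. The permutation tests took no account of sex. The d/a ratio is given where the parents differed by at least 0.5 log2 units. The widest gap between libraries was found on log2 of CPM + 0.5. Named genes were the members, the 3 features most like each member among those with a mean of at least 1 CPM, and at most 4 genes a list. Brain and muscle libraries of an animal were paired by the animal numbers in the titles: deviations from group means correlated at 0.129 on average within 40 animals, over 0.1 in 23, against -0.00324 between animals. Alternatives were DESeq2 1.42.0, RLE scaling, no filter, no sex term, a linear scale, F1 alone, the animal as block, and leaving out shallow libraries, animals 64 or 76, or each BTS or CTS library. Leaving out libraries with other-tissue markers and the permutation tests were added after seeing the data. Shares of all features called are from edgeR throughout, and none is given for DESeq2. The fit was tested on simulated counts.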

Additional observations from a re-analysis of the deposited data

Results flagged for a closer look

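In 36 groups of 4 to 10 libraries, 9 libraries stood far from the rest of their group. By chance about 1 in 20 groups of independent, normally distributed values would have such a library; CPM values are skewed and the tissues share animals, so that rate is only nominal here. HEMK1 in heated BTS animal 75 was 188 CPM in brain, where the next heated BTS brain had 13.0 CPM, and 87.2 CPM in muscle, where the next had 2.57 CPM. The first COCH feature was 38.2 CPM in the muscle of BTS control animal 71, where the next control had 0.495 CPM, and 2.44 CPM in the brain of heated F1 animal 86, where the next had 1.05 CPM. The second COCH feature was 26.0 CPM in the brain and 7.35 CPM in the muscle of heated BTS animal 90, where the next libraries had 12.4 and 2.67 CPM. It was 18.2 CPM in the brain of heated F1 animal 67, where the next had 9.59 CPM, and 20.6 CPM in the brain of heated CTS animal 7, where the next had 2.89 CPM. It was 9.65 CPM in the muscle of CTS control animal 83, where the next had 3.58 CPM.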

How the results depend on the processing

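Over the planned and added alternatives, 932 values of the main results were counted as the same, 6 passed the threshold, 1 fell short of it, 4 moved and 5 reversed. A tested difference counted as the same if it stayed on its side of the threshold. Where neither fit was called, this included changes of sign. With single libraries left out, heat minus control of BANK1 in muscle ran from -0.42 to 0.76, all counted as the same. An F1 minus mid-parent difference counted as the same if it moved by less than the replicate spread. Between tissues, brain minus muscle was 0.92 for HEMK1 and 1.15 for the second COCH feature under RLE scaling, -0.96 and -0.66 without the filter on low counts, and 0.45 and 0.76 with the animal as a replicate block, which also gave 1.26 for BANK1. The block gave 0.06 for the first COCH feature and changed no other call. With the mid-parent averaged on the linear scale, the log2 ratio of mean F1 CPM to it was -2.88 in heated muscle for BANK1. It was -1.91 in control muscle for BANK1 and -3.0 in control brain for HEMK1. Leaving out each BTS or CTS library in turn gave these ranges. For HEMK1, F1 minus mid-parent among heated animals ran from -0.94 to 0.14 in brain and from -0.93 to 0.71 in muscle, and heat minus control from -1.43 to -0.70 in brain and from -1.71 to -0.60 in muscle. For the first COCH feature in muscle, BTS minus CTS ran from 2.25 to 4.44 and F1 minus mid-parent among controls from -3.55 to -0.93, over 19 of 21 fits, since 2 left it under the filter. The cause of these changes was not tested. Depth limits BANK1 and the first COCH feature most, with a few reads in many libraries.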
